A study of Mus musculus with 24 samples.

Results

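Translation initiation and elongation factors were examined in hepatocytes of aged C57BL/6J mice. The members were all genes whose name begins with Eif1 to Eif6, Eef1 or Eef2. The kinases of eIF2 (Eif2ak genes), the eIF4E-binding proteins (Eif4ebp genes) and numbered pseudogenes were left out. This gave 64 of the 55421 genes in the tables, and 59 of them had enough counts to be tested. Of the other 5 members, Eef1a2, Eef1akmt3 and Eif4e1b are protein-coding genes with 19, 55 and 0 counts in all libraries together. Eif5al3-ps is a pseudogene without a number after its ending (63 counts), and Eif2c5 is a long non-coding RNA (1 count) that the name rule also takes in.

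RNA sequencing of poly(A) RNA was carried out on hepatocytes isolated by 2-step liver perfusion from 24 male mice, 1 library per mouse. The ND+veh group (8 mice) was fed a normal diet with vehicle from 4 months of age onwards. The HFD+veh group (7 mice) had the same start and was moved at 18 months to a diet with 60% of its calories from fat for 9 weeks. The HFD+eRapa group (9 mice) received encapsulated rapamycin, an inhibitor of the growth kinase complex mTORC1, at 42 ppm in its food from 4 months and the same high-fat diet with rapamycin from 18 months for 9 weeks. All groups share the strain, sex and age, and no group received rapamycin on the normal diet, so the drug was compared on the high-fat diet only. Each library held between 17.7 and 25.9 M counts, M being 1e+06. The summed level of 8 hepatocyte markers, among them Alb and Hnf4a, was 52090 to 160200 counts per M counts (CPM) across libraries, and no hepatocyte marker was at 0 in any library.

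Protein synthesis begins when eIF2 carries the initiator tRNA to the small ribosomal subunit, helped by eIF1, eIF1A and eIF5, while eIF3 holds the assembly together. The eIF4F complex, built from the cap-binding protein eIF4E, the scaffold eIF4G and the helicase eIF4A, brings in the mRNA, and eIF2B recharges eIF2 for the next round. During elongation eEF1A delivers each aminoacyl-tRNA and eEF2 moves the ribosome by a codon. Many mRNAs of the translation apparatus begin with a C followed by a stretch of pyrimidines, the 5′ terminal oligopyrimidine (TOP) element, through which mTORC1 controls their translation.

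The start of the transcript is therefore shown for members that carry the main results. Each line gives 30 bases, 15 on either side of the boundary at the RefSeq start site (GRCm38.p6), on the transcribed strand and 5′ to 3′. Capitals mark a C that begins at least 5 pyrimidines in a row and lies within 5 bases of the start, and lines without capitals held no such run.

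Eef2 (chr10:81176616-81176645, plus strand): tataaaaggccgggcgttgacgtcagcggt

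Eef1a1 (chr9:78481710-78481739, minus strand): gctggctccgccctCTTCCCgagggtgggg

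Eif3f (chr7:108934400-108934429, plus strand): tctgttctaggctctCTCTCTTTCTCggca

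Eif2b5 (chr16:20498802-20498831, plus strand): ccttcctctttctCTCCCTgcaactacacc

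Eif2b4 (chr5:31193125-31193154, minus strand): cgggacccagtgcacgccggaagttgtagt

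Eif4b (chr15:102073758-102073787, plus strand): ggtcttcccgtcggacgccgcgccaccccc

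Such a run was present at 11 of 47 members with a RefSeq start entry (23.4%), beside 18.7% of the starts of 16808 protein-coding genes. Eif1a and Eif3j2, on chromosome 18, were not scored, while the 16808 genes were not limited by chromosome. Eef2, Eif4b and Eef1b2, textbook TOP mRNAs, had none at the annotated start, while Eef1a1 and Eif3f did. Eef1d, Eef1g, Eif3e and Eif3h, also textbook TOP mRNAs, were not among the 47. The run is a match of letters at an annotated start and was not tested for function.

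Levels between genes were compared by FPKM, the deposited values scaled to gene length and to mapped fragments. Eef1a1, the tRNA-delivering factor, stood first, at 2540 ± 119 FPKM in ND+veh (SD, n = 8), 2303 ± 441 in HFD+veh (n = 7) and 2628 ± 211 in HFD+eRapa (n = 9). Eef2, the translocase, came next with 446 ± 46.4, 297 ± 46.3 and 428 ± 44.9 FPKM. The ranges of these first members did not meet, since the lowest library of Eef1a1 was at 2023 FPKM and the highest of Eef2 at 493.1. Over all 24 libraries, Eif5a (mean 211 FPKM), Eif1 (196), Eif4a1 (180), Eif4a2 (146), Eef1b2 (129) and Eif4g2 (118) followed. Within this run each member's range overlapped that of its neighbour, and the steps between means were below the larger SD of the neighbours except from Eif4a1 (SD 24.6) to Eif4a2 (SD 22.6). Of the 14 eIF3 genes Eif3j2 was lowest, and the other 13 lay between 10.1 FPKM (Eif3j1) and 71.8 FPKM (Eif3h). The subunits of eIF2B, a catalytic exchange factor, lay from 5.01 (Eif2b3) to 14.5 FPKM (Eif2b4), within the lower end of the eIF3 range. Eef2k, the kinase that inactivates eEF2, was near the bottom at 1.55 FPKM.

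**Figure D1:**
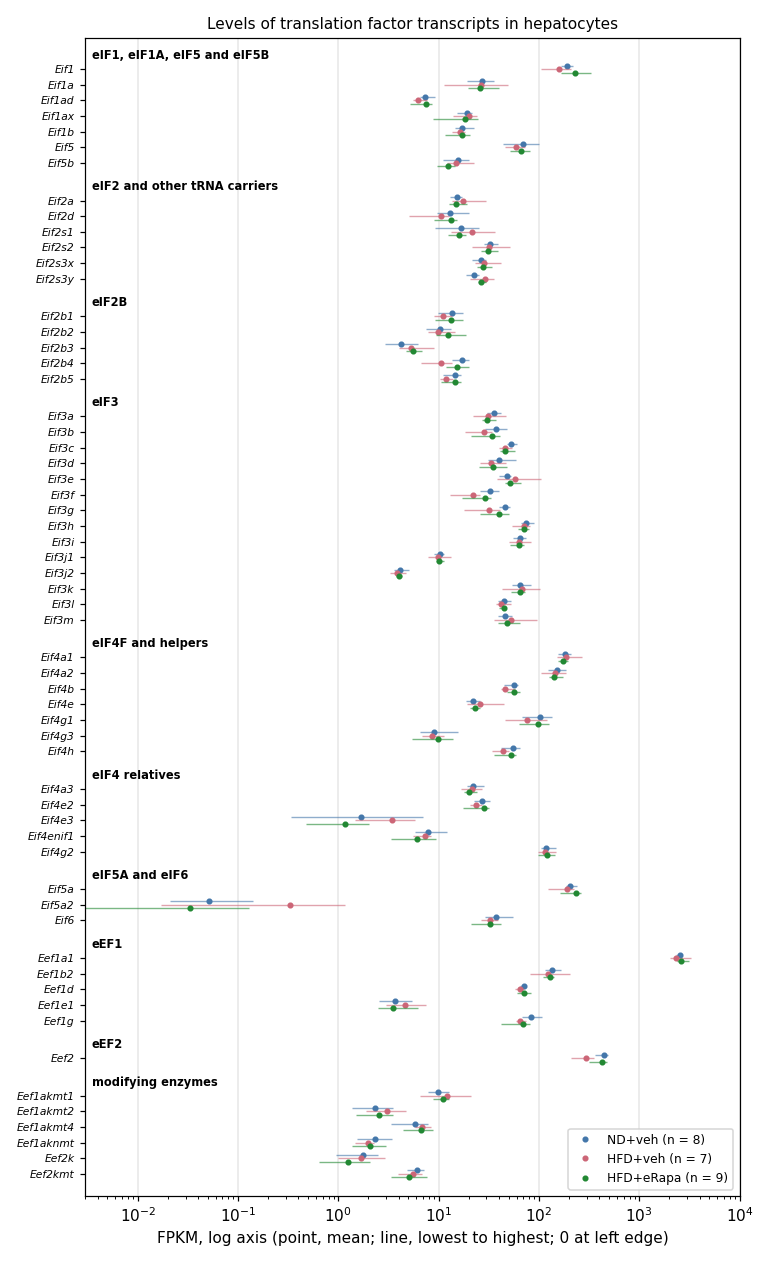
FPKM (log axis) of the 59 tested members, grouped by complex, with the mean of each group as a point and the lowest to highest animal as a line. Eef1a1 lies above all other members in every group, and Eif5a2 and Eif4e3 spread most widely between animals.

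Genes were tested on counts with edgeR's quasi-likelihood test in 1 fit of all 24 libraries, and a gene is termed called at an adjusted p under 0.05 over all 13847 genes tested. Levels between groups are given in CPM scaled by the trimmed mean of M-values, and fold changes are on the log2 scale with their standard error (SE). In these bulk libraries, fewer cells of a type and less RNA per cell cannot be told apart.

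Before the comparisons, 1 library has to be set apart. HFD+veh replicate 6 had a GC tilt of -1.53, while the other HFD+veh libraries ran from -0.27 to 0.12. The GC tilt is the median deviation of abundant genes with a transcript GC content of 55% or more from their mean over all libraries, minus that of abundant genes under 45%, in log2 CPM. HFD+veh replicate 6 also held the highest summed level of 10 macrophage markers, 5689 CPM. The hepatocyte marker sum, mostly Alb, had medians of 125700 CPM in ND+veh, 116200 in HFD+veh and 101000 in HFD+eRapa. Of the 8 hepatocyte markers, 2 were called lower in HFD+veh against ND+veh (25%, beside 9.86% of all genes). In HFD+eRapa against HFD+veh 2 were called higher (25%, beside 10.9% of all genes). The markers of other liver cell types moved with the groups too. The macrophage sum ran from 48.0 to 1452 CPM in ND+veh (median 276), from 184 to 5689 in HFD+veh (median 2742) and from 18.2 to 1168 in HFD+eRapa (median 221), with none of the 10 markers at 0 in any library. Endothelial markers (7 genes) had median sums of 178, 371 and 111 CPM in the same order, stellate markers (7 genes) 102, 131 and 37.9 CPM, and cholangiocyte markers (6 genes) 5.74, 106 and 20.8 CPM. The 9 lymphocyte markers summed to 5.81, 83.1 and 6.35 CPM and the 6 neutrophil markers to 1.12, 23.1 and 2.32 CPM (medians). The cholangiocyte and lymphocyte sums came mostly from 1 gene each. In HFD+veh, Spp1 averaged 132.5 CPM of a mean cholangiocyte sum of 144.1 CPM, while Krt19 averaged 0.74 CPM. Ptprc averaged 113.7 CPM of a mean lymphocyte sum of 125 CPM there, so these sums do not measure the 2 cell types by themselves. Among defining markers, Cd3e was at 0 in 5 libraries, Cd8a in 9, Ms4a1 in 10, Ly6g in 22 and Krt19 in 5. Mitochondrial genes took a median of 4.93% of the counts in ND+veh (4.38% to 8.15%), 7.72% in HFD+veh (4.79% to 9.70%) and 7.56% in HFD+eRapa (6.29% to 10.7%), and the part of this share in the results was not tested.

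The high-fat diet was compared with the normal diet among vehicle-treated mice. Of the 59 members, 10 were lower in HFD+veh, and they belong to elongation (Eef2, Eef1g), to eIF3 (Eif3b, Eif3d, Eif3f, Eif3g), to eIF2B (Eif2b4, Eif2b5) and to the helpers of eIF4A (Eif4b, Eif4h). The background for lower calls was 9.86% of all genes tested, and the members' share was 16.9%. Only Eif2s3y and Eif5a2 were called higher, 3.39% of the members beside a background of 16.0%. The median fold change was -0.08 over the members and 0.05 over all genes. All members called lower were abundant, and among genes with a mean log2 CPM of 3 or more the lower calls were 10 of 49 members (20.4%) and 13.04% of all such genes.

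Rapamycin was compared with vehicle on the high-fat diet. Of the 59 members, 18 were higher in HFD+eRapa, beside a background of 10.9% of all genes called higher, and 2 were lower, beside a background of 21.1%. Members called higher were thus 30.5% of those tested, and among the abundant genes 18 of 49 members (36.7%) beside 15.1% of all such genes. These 18 were Eef2 and Eef1d, Eif1, Eif1ad and Eif5, Eif2d, 3 eIF2B genes, 4 eIF3 genes, Eif4b, Eif4g1 and Eif4h, Eif4e2, and Eif5a. Of these calls, only that of Eef2 was kept with an immune marker score in the fit, and likewise with a score of other non-hepatocyte markers. The 2 comparisons share the 7 HFD+veh libraries, so a low or high value there enters both with opposite sign, and their calls are not independent of each other. Between HFD+eRapa and ND+veh, 2 members were called, Eif2s3y higher and Eef2kmt lower, beside backgrounds of 6.93% and 6.54%.

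**Figure D2:**
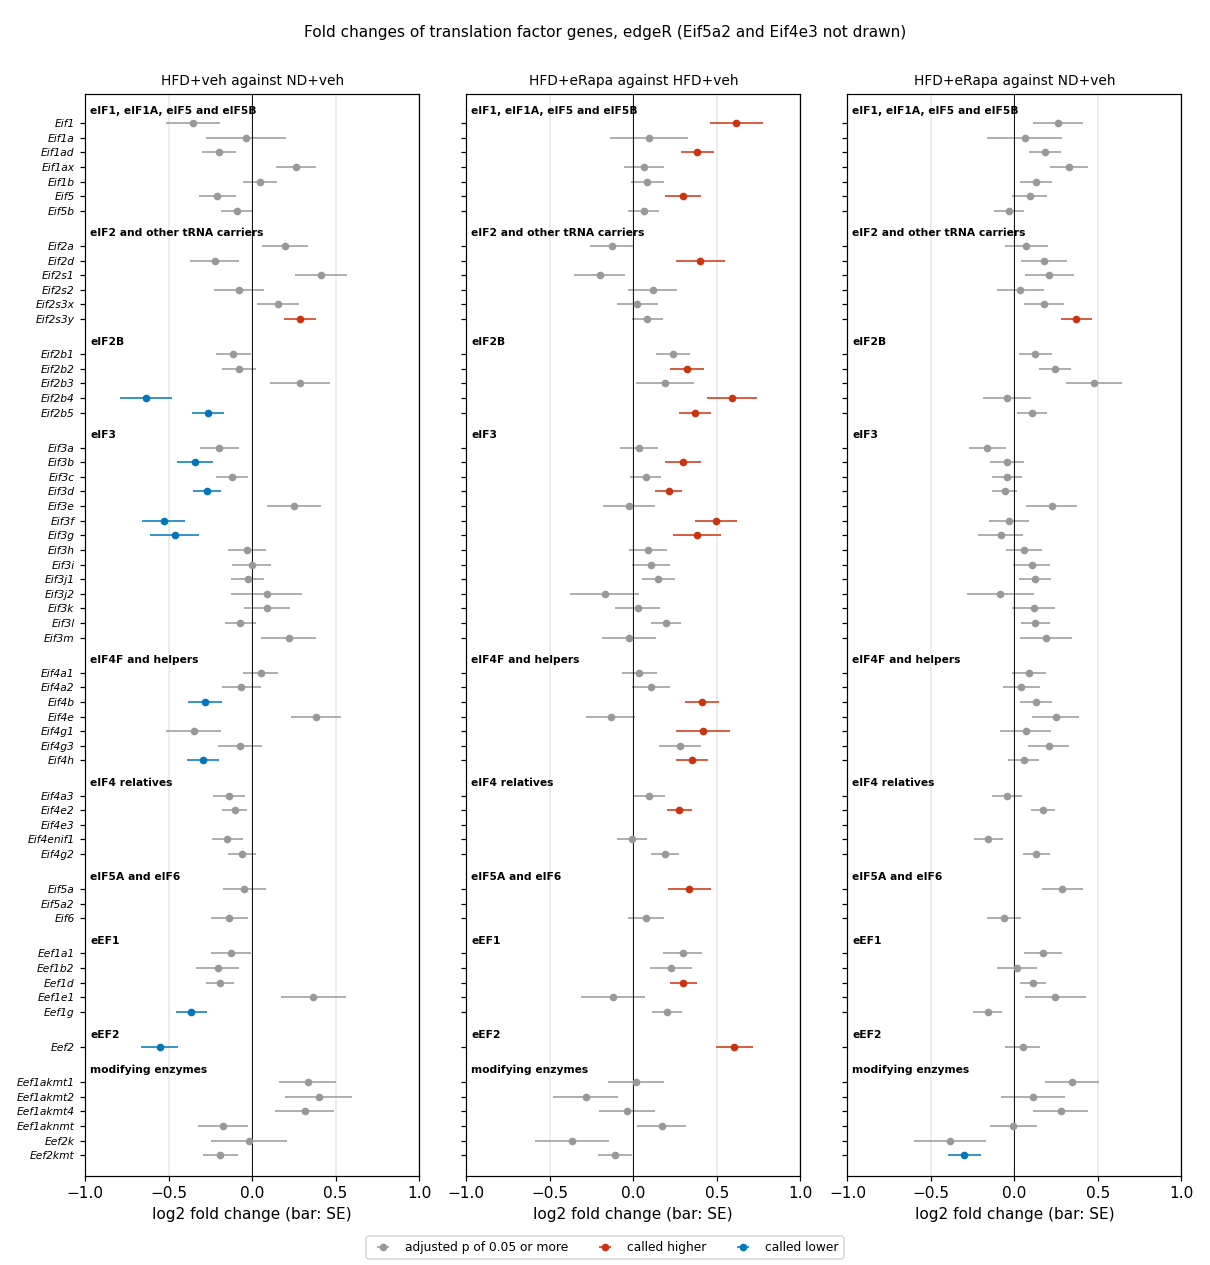
Log2 fold changes of 57 tested members with their SE, by complex, in the 3 comparisons; Eif5a2 and Eif4e3, whose changes exceed the axis, are not drawn. Members called lower in HFD+veh lie between -0.64 and -0.26, and those called higher in HFD+eRapa between 0.21 and 0.62.

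Among the elongation factors, Eef2 in CPM was lower in all HFD+veh animals than in any other animal, and the subunits of eEF1 differed less. Eef2 (ENSMUSG00000034994.10, chr10:81176631-81182498, GRCm38) was at 1234 to 1586 CPM in ND+veh (median 1404), 649 to 1154 in HFD+veh (median 1022) and 1267 to 1576 in HFD+eRapa (median 1477). In these scaled CPM, all 7 HFD+veh animals lay below every animal of the other groups, whose ranges overlapped. In FPKM, all 7 lay below every ND+veh animal. However, HFD+veh replicates 2 (355 FPKM) and 5 (333 FPKM) lay above HFD+eRapa replicate 2 (319 FPKM). The fold change was -0.55 (SE 0.11, adjusted p = 0.0019) in HFD+veh against ND+veh, 0.61 (SE 0.11, adjusted p = 0.00052) in HFD+eRapa against HFD+veh and 0.05 (SE 0.10, adjusted p = 0.82) in HFD+eRapa against ND+veh. The HFD+veh animals whose macrophage sums were lowest, 184 and 187 CPM, had 1154 and 1079 CPM of Eef2, below the lowest ND+veh animal. Within HFD+veh, Eef2 was lowest, at 649, 815 and 874 CPM, in animals with macrophage sums of 5689, 2742 and 3501 CPM. The HFD+veh animal at a sum of 3042 CPM had 1107 CPM of Eef2. ND+veh replicate 8, with the highest sum of its group (1452 CPM), had the lowest Eef2 there (1234 CPM). With an immune marker score added to the fit the differences were -0.43 (adjusted p = 0.024) and 0.46 (adjusted p = 0.022), and without HFD+veh replicate 6 they were -0.51 and 0.55. Eef2 was called in both comparisons under each of 15 other settings and each time 1 library was left out.

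Eef1g encodes a structural subunit of the eEF1B exchange complex, which recharges eEF1A. It stood at 129 to 156 CPM in ND+veh (median 150), 101 to 124 in HFD+veh (median 118) and 93.4 to 154 in HFD+eRapa (median 134). With no overlap it was lower under HFD+veh than under ND+veh, by -0.36 (SE 0.09, adjusted p = 0.0079), and the difference of 0.20 with rapamycin did not pass (adjusted p = 0.085). The decrease of Eef1g was -0.25 with the immune score in the fit (adjusted p = 0.13). Eef1d, an exchange subunit of the same complex, was at 47.5 to 63.8, 42.9 to 58.8 and 53.5 to 71.8 CPM in the 3 groups, and only the difference of 0.30 with rapamycin passed (SE 0.08, adjusted p = 0.0079). That call was not kept with the immune score in the fit. Eef1a1 itself, the most abundant member, was at 3273 to 4706, 3167 to 5297 and 3825 to 5561 CPM. Its groups overlapped widely, and neither -0.13 (adjusted p = 0.46) nor 0.30 (adjusted p = 0.060) was called. Without HFD+veh replicate 6, where Eef1a1 was highest in its group, the difference between HFD+eRapa and HFD+veh was 0.41 (adjusted p = 0.015). Eef1b2, the other exchange subunit, differed by -0.21 and 0.22, and Eef1e1, a scaffold protein of tRNA synthetase complexes, by 0.37 and -0.12, none of them called.

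**Figure D3:**
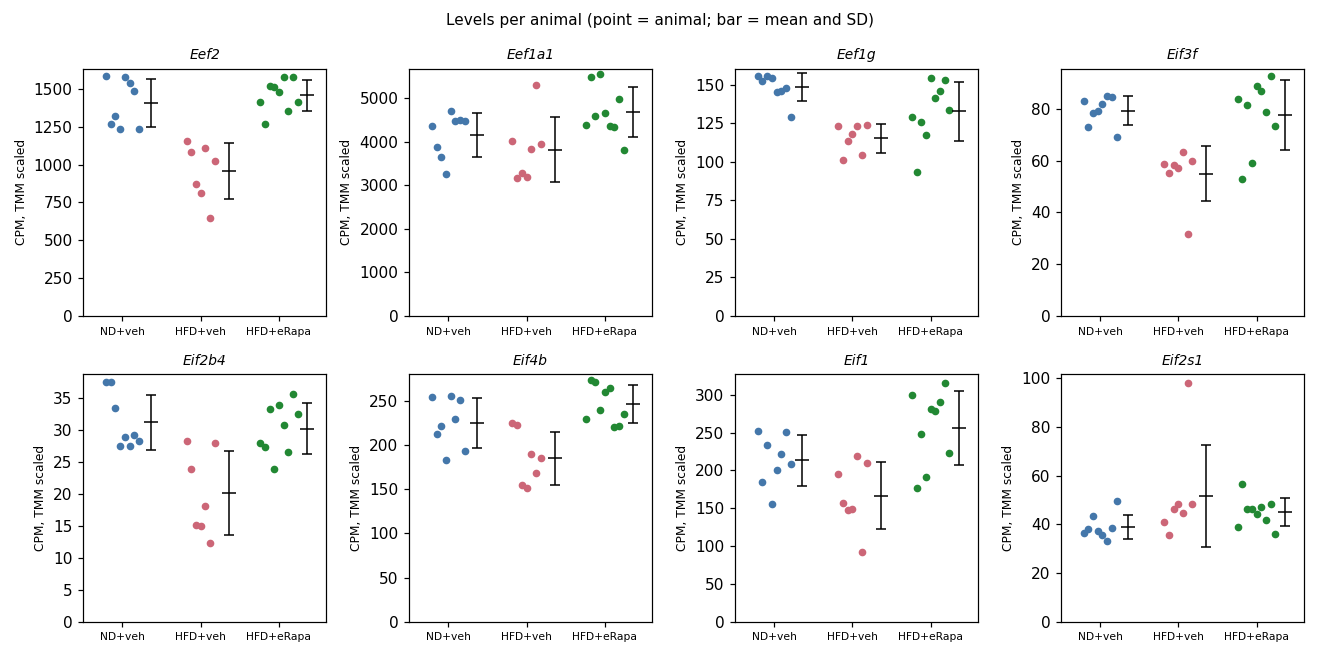
CPM of 8 members in each animal, with the mean and SD of the group beside the points; each axis starts at 0. For Eef2 the 7 HFD+veh animals lie below all others, for Eef1g and Eif3f they lie below all ND+veh animals, and for Eif2s1 the highest point is HFD+veh replicate 6 at 98.2 CPM.

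Of the 14 eIF3 genes, 4 were lower under HFD+veh than under ND+veh (Eif3b, Eif3d, Eif3f and Eif3g), and these 4 were higher under HFD+eRapa than under HFD+veh. The remaining 10 were called in neither comparison. Eif3f (ENSMUSG00000031029.6, chr7:108934417-108942951), a subunit of the MPN-domain module, was at 69.3 to 85.0 CPM in ND+veh (median 80.5), 31.5 to 63.5 in HFD+veh (median 58.4) and 53.1 to 92.5 in HFD+eRapa (median 81.5). No HFD+veh animal reached the ND+veh range, and 8 of 9 HFD+eRapa animals lay above the HFD+veh median. The fold changes were -0.53 (SE 0.13, adjusted p = 0.0059) and 0.50 (SE 0.13, adjusted p = 0.0051), and without HFD+veh replicate 6 they were -0.47 and 0.41, both still called. An immune marker score added as covariate took them to -0.39 and 0.32 (adjusted p = 0.071 and 0.18).

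Eif3g, which binds RNA in the scanning complex, was at 37.6 to 50.1, 16.8 to 43.2 and 31.3 to 54.1 CPM and changed by -0.46 (adjusted p = 0.024) and 0.38 (adjusted p = 0.043). Its groups overlapped, and the rise with rapamycin was called in 6 of 16 fits that left out 1 library. That rise was called under 4 of the 15 other settings. With the immune score in the fit the changes of Eif3g were -0.31 and 0.20 (adjusted p = 0.21 and 0.48). Eif3b, a core scaffold subunit, was at 96.1 to 123, 56.9 to 109 and 83.3 to 118 CPM and changed by -0.34 and 0.30 (adjusted p = 0.025 and 0.034). Eif3d, a subunit with cap-binding activity, was at 52.2 to 66.9, 42.6 to 57.2 and 49.6 to 61.2 CPM and changed by -0.27 and 0.21 (adjusted p = 0.020 and 0.046). An antisense gene, Gm17638, overlaps 43.3% of the exonic bases of Eif3d, and reads of the 2 genes cannot be told apart here because the strand setting of the counting is not given. The decreases of Eif3b and Eif3d were called each time 1 library was left out, but under 6 and 5 of the 15 other settings, and the GC trend described further on ended both calls. Among the uncalled subunits the fold change in HFD+veh against ND+veh lay between -0.20 (Eif3a, the largest scaffold subunit) and 0.25 (Eif3e), and in HFD+eRapa against HFD+veh between -0.17 (Eif3j2) and 0.20 (Eif3l). The median over all 14 was -0.05 and then 0.10.

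Within eIF2B, Eif2b4 and Eif2b5 were lower under HFD+veh than under ND+veh, and Eif2b2, Eif2b4 and Eif2b5 were higher under HFD+eRapa than under HFD+veh. Eif2b4 (the delta subunit, of the regulatory core; ENSMUSG00000029145.12, chr5:31187558-31193430) was at 27.5 to 37.4 CPM in ND+veh (median 29.0), 12.3 to 28.2 in HFD+veh (median 18.1) and 23.95 to 35.6 in HFD+eRapa (median 30.8). All 7 HFD+veh animals were below the ND+veh median, with some overlap at the edges, and all 9 HFD+eRapa animals were above the HFD+veh median. The changes were -0.64 (SE 0.15, adjusted p = 0.0060) and 0.59 (SE 0.15, adjusted p = 0.0054), of which the first was the largest decrease among the 59 tested members in that comparison. With the immune score added to the fit they were -0.38 and 0.28 (adjusted p = 0.056 and 0.18). Eif2b5, the catalytic epsilon subunit, was at 30.5 to 44.3, 25.7 to 40.3 and 34.8 to 44.3 CPM. It changed by -0.26 (adjusted p = 0.048) and 0.37 (adjusted p = 0.0056), and the decrease was called in 4 of 15 fits that left out 1 library. The decrease of Eif2b5 was called under 1 of the 15 other settings. Eif2b2, a regulatory subunit, was higher under HFD+eRapa than under HFD+veh by 0.32 (adjusted p = 0.018), while Eif2b1 (-0.11 and 0.24) and Eif2b3 (0.29 and 0.19) were not called. The rises of Eif2b2 and Eif2b5 did not keep their calls with the immune score in the fit.

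The genes of eIF2, the substrate of eIF2B, were mostly not called. Eif2s1, the eIF2 alpha subunit that stress kinases phosphorylate, was at 33.3 to 49.4 CPM in ND+veh (median 37.6), 35.7 to 98.2 in HFD+veh (median 46.1) and 36.3 to 56.4 in HFD+eRapa (median 46.1). The difference of 0.41 with the high-fat diet missed the threshold (adjusted p = 0.055) and was 0.14 without HFD+veh replicate 6. Eif2s2 and Eif2s3x, the beta and gamma subunits, were not called, with differences of -0.08 and 0.15 in HFD+veh against ND+veh and of 0.12 and 0.02 in HFD+eRapa against HFD+veh. Eif2s3y, the Y-linked gamma subunit, was at 32.7 to 44.4, 39.4 to 54.3 and 40.7 to 63.6 CPM. It was higher than under ND+veh in both high-fat groups, by 0.29 (SE 0.10, adjusted p = 0.032) in HFD+veh and by 0.37 (SE 0.09, adjusted p = 0.0070) in HFD+eRapa. All animals of both high-fat groups lay above the ND+veh median. The call in HFD+veh held in 8 of 15 fits that left out 1 library and was lost without HFD+veh replicate 6. It held under 9 of the 15 other settings and was lost with either marker score and with a GC trend removed. The call in HFD+eRapa held under 11 of these settings and was lost with total counts alone and in every FPKM fit. Eif2d, an alternative initiator tRNA carrier, was higher under HFD+eRapa than under HFD+veh by 0.40 (adjusted p = 0.036). That call held in 9 of 16 fits that left out 1 library and under 4 of the 15 other settings. Eif2a was not called.

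Within eIF4F the cap-binding protein and the helicases were not called. Eif4e was at 32.1 to 49.3, 38.3 to 98.1 and 43.1 to 65.9 CPM, and its difference of 0.38 with the high-fat diet (adjusted p = 0.064) was 0.14 without HFD+veh replicate 6. Eif4a1 differed by 0.05 and 0.04 and Eif4a2 by -0.06 and 0.11. The scaffold Eif4g1 was at 340 to 539, 221 to 555 and 370 to 610 CPM, with a wide spread in HFD+veh. Its change of -0.35 in HFD+veh was not called (adjusted p = 0.11). The rise of 0.42 in HFD+eRapa was called (adjusted p = 0.048) but held in 5 of 16 fits that left out 1 library. That rise was called under 2 of the 15 other settings.

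Both cofactors that stimulate eIF4A were called in these comparisons. Eif4b (chr15:102073773-102097173), an RNA-binding cofactor, was at 183 to 255 CPM in ND+veh (median 225), 151 to 224 in HFD+veh (median 185) and 220 to 274 in HFD+eRapa (median 239). All HFD+eRapa animals were above the HFD+veh median, and the HFD+veh and ND+veh ranges overlapped. The changes were -0.28 (SE 0.10, adjusted p = 0.044) and 0.41 (SE 0.10, adjusted p = 0.0040). With 1 library left out, the decrease was called in 4 of 15 fits and the rise in all 16. Under the 15 other settings, the decrease was called in 7 and the rise in 13. The rise of Eif4b was 0.29 with the immune score in the fit and 0.24 with the score of other non-hepatocyte markers (adjusted p = 0.12 and 0.21). Eif4h, its smaller relative, was at 109 to 145, 81.3 to 123 and 109 to 155 CPM and changed by -0.29 (adjusted p = 0.030) and 0.35 (adjusted p = 0.0078). Both calls of Eif4h ended with a GC trend removed (-0.06 and 0.13, adjusted p = 0.50 and 0.062) and with the immune score in the fit (-0.14 and 0.17, adjusted p = 0.41 and 0.34), and its decrease was called under 7 of 15 other settings. Among the eIF4 relatives, Eif4e2, a cap-binding repressor, was higher under HFD+eRapa than under HFD+veh by 0.28 (SE 0.07, adjusted p = 0.0067). That rise of Eif4e2 was not called with the immune score in the fit. Eif4g2, Eif4g3, Eif4a3 and Eif4enif1 were called in no comparison.

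Of the 7 genes grouped by name with eIF1, eIF1A, eIF5 and eIF5B, Eif1, Eif1ad and Eif5 were higher under HFD+eRapa than under HFD+veh. None was called in the other comparisons. Eif1 (chr11:100319885-100322096), which guards the choice of the start codon, was at 155 to 252 CPM in ND+veh (median 215), 92.3 to 219 in HFD+veh (median 156) and 177 to 316 in HFD+eRapa (median 278). The highest levels were found in HFD+eRapa, and all 9 of its animals exceeded the HFD+veh median. The rise of 0.62 over HFD+veh passed (SE 0.16, adjusted p = 0.0055; 0.42 with the immune marker score, adjusted p = 0.16), while -0.35 in HFD+veh against ND+veh (adjusted p = 0.10) and 0.26 in HFD+eRapa against ND+veh (adjusted p = 0.28) did not. Eif5, which triggers GTP hydrolysis by eIF2, was at 156 to 203 CPM in HFD+veh and 208 to 252 in HFD+eRapa with no overlap (0.30, adjusted p = 0.035). Its ND+veh animals spanned both, from 154 to 266 CPM. Eif1ad, grouped here by its name, rose as well, by 0.38 (adjusted p = 0.0059). An opposite-strand gene, Banf1, overlaps 15.3% of the exonic bases of Eif1ad. The rises of Eif5 and Eif1ad did not keep their calls with the immune score in the fit. Eif1a, Eif1ax, Eif1b and Eif5b were not called. Eif5a, which relieves stalled ribosomes, was higher under HFD+eRapa than under HFD+veh by 0.34 (adjusted p = 0.047). That call held in 6 of 16 fits that left out 1 library and under 6 of the 15 other settings. Eif6, which keeps the large ribosomal subunit apart from the small one, was not called.

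Members on the TOP list, written from textbook knowledge, were Eef1a1, Eef1b2, Eef1d, Eef1g, Eef2, Eif3e, Eif3f, Eif3h and Eif4b. Of these 9, 4 were lower under HFD+veh than under ND+veh (Eef1g, Eef2, Eif3f, Eif4b) and 4 were higher under HFD+eRapa than under HFD+veh (Eef1d, Eef2, Eif3f, Eif4b), beside 9.86% and 10.9% of all genes tested. The median fold changes were -0.21 and 0.30, beside -0.07 and 0.10 for the 50 members not on the list. All 9 were abundant, and the 49 members with a mean log2 CPM of 3 or more had medians of -0.11 and 0.19. Among all such genes 13.04% were called lower and 15.1% higher in these comparisons. With the immune score in the fit, only the calls of Eef2 were kept. In edgeR none of the 9 was called between HFD+eRapa and ND+veh, where the median was 0.06 and 0 had an unadjusted p under 0.05. RNA level was measured here, and translation was not.

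The enzymes that modify elongation factors were called in neither of the first comparisons. Eef2k, which inactivates eEF2 by phosphorylation, was at 4.65 to 9.42 CPM in ND+veh, 5.07 to 10.7 in HFD+veh and 3.17 to 8.22 in HFD+eRapa, with differences of -0.02 and -0.37 (adjusted p = 0.96 and 0.21). Eef2kmt, a methyltransferase of eEF2, was lower under HFD+eRapa than under ND+veh by -0.30 (adjusted p = 0.046), and this call held in 4 of 17 fits that left out 1 library. The eEF1A methyltransferases Eef1akmt1, Eef1akmt2, Eef1akmt4 and Eef1aknmt were not called.

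Eif5a2 and Eif4e3, both rare transcripts, were the 2 members called lower under HFD+eRapa than under HFD+veh. Eif5a2, a paralogue of Eif5a with 361 counts in all libraries together, was at 0.11 to 0.81 CPM in ND+veh (median 0.19), 0.10 to 5.99 in HFD+veh (median 1.65) and 0 to 0.84 in HFD+eRapa (median 0.062). It was called higher under HFD+veh than under ND+veh, by 2.61 (SE 0.77, adjusted p = 0.018), and lower under HFD+eRapa than under HFD+veh, by -3.01 (SE 0.77, adjusted p = 0.0054). The groups overlapped, and the 4 HFD+veh animals at 1.65 to 5.99 CPM were those with macrophage sums of 2742 to 5689 CPM. With the immune score added to the fit the differences were 0.01 and -0.46 (adjusted p = 0.99 and 0.86). Without HFD+veh replicate 6 they were 1.77 (adjusted p = 0.098) and -2.16 (adjusted p = 0.036).

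Eif4e3, a cap-binding paralogue of Eif4e, was at 0.85 to 14.4 CPM in ND+veh (median 2.02), 3.57 to 14.2 in HFD+veh (median 7.68) and 1.30 to 5.11 in HFD+eRapa (median 2.93). It was lower under HFD+eRapa than under HFD+veh by -1.48 (SE 0.45, adjusted p = 0.015), and the difference of 1.12 with the high-fat diet did not pass (adjusted p = 0.074). With the immune score added to the fit the decrease was -0.51 (adjusted p = 0.55). A predicted gene, Gm20696, shares 14.8% of its exonic bases on the same strand, so the counts of both are uncertain.

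**Figure D4:**
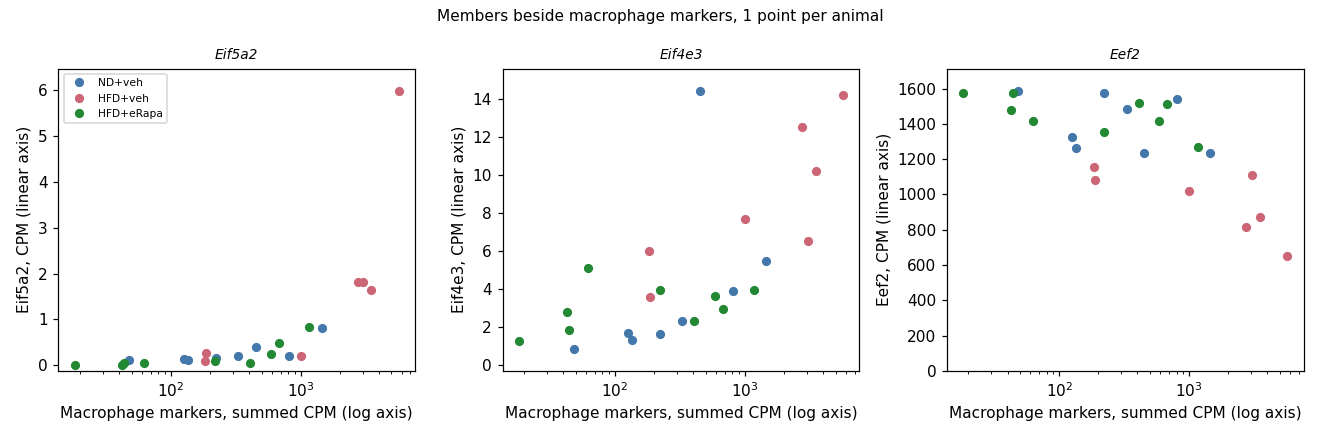
CPM of Eif5a2, Eif4e3 and Eef2 in each animal (linear axes) against the summed CPM of 10 macrophage markers (log axis). The 4 animals above 1 CPM of Eif5a2 are HFD+veh animals with macrophage sums of 2742 CPM or more. For Eef2 every HFD+veh animal lies below all ND+veh animals, from 1154 CPM at a macrophage sum of 184 CPM to 649 CPM at 5689 CPM.

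Paralogues that fill the same place in eIF4F were compared as ratios within each library, which do not depend on the scaling of libraries. Eif4e3 made up 1.88% to 28.4% of the counts of Eif4e3 and Eif4e in ND+veh (median 4.66%), 8.52% to 20.95% in HFD+veh (median 12.6%) and 2.68% to 10.6% in HFD+eRapa (median 5.61%). The log2 ratio was lower under HFD+eRapa than under HFD+veh by -1.36 (exact two-sided permutation p = 0.00044, adjusted p = 0.0039 over 9 tests). This ratio was not adjusted for markers of other cell types. The decrease of Eif4e3 itself in edgeR was -0.51 with the immune score and -0.31 with the other non-hepatocyte score (adjusted p = 0.55 and 0.76). Whether the ratio changed within hepatocytes was not tested. Between HFD+veh and ND+veh it differed by 1.25 (exact permutation p = 0.046, adjusted p = 0.21), and without ND+veh replicate 4, which held the share of 28.4%, by 1.62 (adjusted p = 0.016 by the same exact test). Eif4a2 made up 49.6%, 47.8% and 47.4% of the counts of Eif4a2 and Eif4a1 (medians in the same order), and Eif4g3 9.86%, 11.9% and 10.9% of those of Eif4g3 and Eif4g1. None of the 6 tests on these ratios passed, with adjusted p from 0.47 to 0.77 by the exact permutation test.

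Regulators of these factors were counted beside them as 28 other genes of the pathway. They were read from the first fit only, and their calls with marker scores, a GC trend or 1 library left out were not examined. In HFD+veh against ND+veh, 6 were lower (21.4%, beside 9.86% of all genes) and 1 was higher (3.57%, beside 16.0%). Among genes with a mean log2 CPM of 3 or more, where most of the 28 lay, 13.04% were called lower and 12.4% higher. All 3 genes of eIF4E-binding proteins, which hold eIF4E away from eIF4G when mTORC1 is inactive, were among the lower ones. Eif4ebp2, the most abundant, was at 155 to 302 CPM in ND+veh (median 266), 75.0 to 217 in HFD+veh (median 136) and 169 to 282 in HFD+eRapa (median 229). It changed by -0.76 (SE 0.19, adjusted p = 0.0080) and then by 0.67 (SE 0.19, adjusted p = 0.0094). Larp1, which binds TOP mRNAs, was lower in HFD+veh by -0.64 (adjusted p = 0.0077), and its difference of 0.39 with rapamycin missed the threshold (adjusted p = 0.058).

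The kinases of eIF2 alpha went in different directions. Eif2ak2, the double-stranded RNA sensor PKR, was at 12.6 to 39.7 CPM in ND+veh, 26.3 to 102 in HFD+veh and 19.99 to 34.7 in HFD+eRapa. It was higher under HFD+veh than under ND+veh by 1.32 (SE 0.25, adjusted p = 0.0012) and lower under HFD+eRapa than under HFD+veh by -0.998 (SE 0.24, adjusted p = 0.0041). Eif2ak3, the endoplasmic reticulum stress sensor PERK, was lower under HFD+veh than under ND+veh by -0.87 (SE 0.19, adjusted p = 0.0032) and lower under HFD+eRapa than under ND+veh by -0.52 (adjusted p = 0.047). In HFD+eRapa against HFD+veh, Eif4ebp2, Pabpc1, Paip1, Gspt1 and Dhx29 were higher (5 of the 28, 17.9%, beside 10.9% of all genes). Eif2ak2, Eif2ak4 and Mknk1 were lower (3 of the 28, 10.7%, beside 21.1%). Among genes with a mean log2 CPM of 3 or more, 15.1% were called higher and 12.4% lower in that comparison.

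The members' fold changes followed a property that the choice of genes did not use, the GC content of the transcript. Of the 8 members with a GC content of 55% or more, 5 were lower under HFD+veh than under ND+veh (16.0% of all genes in that band), and 7 were higher under HFD+eRapa than under HFD+veh (12.7% of all genes in that band). Of the 20 members under 45%, none was lower in HFD+veh (4.02% of all genes in that band) and 1 was higher under HFD+eRapa than under HFD+veh (6.21% of all genes in that band), shares near the background of the band. Across the 59 members the Spearman correlation of fold change with GC content was -0.59 and 0.52 in these comparisons, and across all genes tested -0.31 and 0.19. Genes are not independent replicates, and these correlations share the HFD+veh libraries. The GC tilt of the libraries was -0.23 to 0.31 in ND+veh (median 0.26), -1.53 to 0.12 in HFD+veh (median -0.13) and -0.66 to 0.27 in HFD+eRapa (median 0.21), so it moved with the groups.

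**Figure D5:**
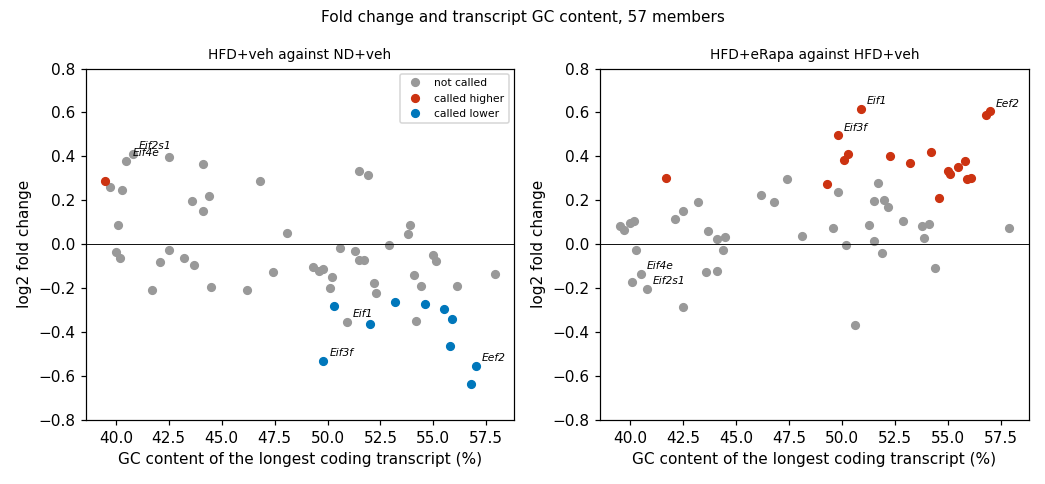
Log2 fold change of 57 tested members against the GC content of their longest coding transcript, for HFD+veh against ND+veh and HFD+eRapa against HFD+veh. Members called lower in HFD+veh lie at a GC content of 49.8% or more, and Eif2s1 and Eif4e, at 40.8% and 40.5%, lie at the other end.

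The counts were repeated in 2 ways chosen after the data were seen. With a smooth GC trend per library removed, 9 members were called in HFD+veh against ND+veh (2 higher, 7 lower; 5 shared with the first fit) and 14 in HFD+eRapa against HFD+veh (11 higher, 3 lower; 11 shared). The trend moved the median fold change of all genes to 0.09 and -0.11. Without the 4 libraries of lowest GC tilt (HFD+veh 3 and 6, HFD+eRapa 2 and 4) the counts were 5 (all lower; 4 shared) and 14 (13 higher, 1 lower; 12 shared). Eef2, Eif3f and Eif2b4 were called in both comparisons under both of these settings, with fold changes of Eef2 of -0.27 and 0.39 after removal of the trend. With an immune marker score added to the fit, 1 member was called in HFD+veh against ND+veh (Eef2, shared with the first fit) and 3 in HFD+eRapa against HFD+veh (1 shared). Calls over all 13847 genes fell as well in that fit, from 3584 to 1213 and from 4432 to 941. With a score of endothelial, stellate and cholangiocyte markers, the members called were 3 (all shared) and 2 (1 shared), beside 1669 and 790 calls over all genes. The mean immune score was 0.78 in HFD+veh, -0.23 in ND+veh and -0.40 in HFD+eRapa, and the other score 0.69, -0.04 and -0.50, and how much of the members' differences other cell types carry was not tested.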

How the data were processed

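The deposited counts of reads per gene are unnormalized. For them the authors used STAR (mm10, Gencode M23), SAMtools 1.1.0 and HTSeq 0.11.2. Strand setting is not given in the sources used here. The deposited FPKM values were made by the authors with Cufflinks. Each table holds 55421 genes, 1 column per library and no pooled column. Genes were kept by filterByExpr and tested with edgeR 4.0.16 in R 4.3.3 (TMM scaling, robust glmQLFit, glmQLFTest, Benjamini-Hochberg adjustment over 13847 genes, all 24 libraries in 1 fit). Log2 CPM used a prior count of 2. Ratios of paralogues (0.5 added to both counts) were compared by exact permutation tests in Python 3.11.15 with scipy 1.17.1, adjusted over 9 tests. Among the tests, FPKM entered limma 3.58.1, on log2(FPKM + 1) or log2(FPKM + 0.1). Ratios of FPKM, with 0.01 added, were an alternative in the exact permutation tests of paralogues. Other alternatives were DESeq2 1.42.0, voom, other scalings and filters, covariates and left-out libraries. Scripts were tested on simulated data. Coordinates, overlaps and GC content come from Gencode M21 (GRCm38). Named genes were Eif1, Eif2s1, Eif2b5, Eif3a, Eif4e, Eif4g1, Eif4a1, Eif4a2, Eif5a, Eif6, Eef1a1, Eef2 and Eef2k, plus called members with a mean log2 CPM of at least 3, up to 12 in each direction; Eif5a2, Eif4e3 and the remaining members are described with their complex. Members and lists were chosen with earlier results of these data known. Pairs of libraries of the same group differed by a chi-square of at least 11.3 per degree of freedom, so each is 1 replicate. The labels number the replicates without naming animals or isolation days, so p-values measure the spread between these libraries.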

Additional observations from a re-analysis of the deposited data

Results flagged for a closer look

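In each group of members' CPM values, ratios and library measures, the highest and lowest animal were compared with the rest. A value was set apart when its gap to the nearest other animal exceeded the 95% critical value of Dixon's test for its share of the range. Of 99 groups of values, 18 held such an animal, where chance alone gives about 4.95 (1 in 20), and groups share their animals.

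HFD+veh replicate 6 accounted for 8 of them. It was high for Eif2s1 (98.2 CPM, others at most 48.6), Eif4e (98.1, at most 52.8), Eif3a (253, at most 181), Eef1a1 (5297, at most 4023) and Eif5a2 (5.99, at most 1.82). It was low for Eif3f (31.5 CPM, others at least 55.3) and Eif2d (10.2, at least 21.9), and its GC tilt of -1.53 was below that of the other animals of its group (at least -0.27).

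ND+veh replicate 8 accounted for 5. It was low for Eef1g (129 CPM, others at least 145) and Eif4g1 (340, at least 446), and high for Eif5a2 (0.81, at most 0.41). Its GC tilt was -0.23 (others at least 0.16), and mitochondrial genes took 8.15% of its counts (others at most 5.19%).

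HFD+eRapa replicate 2 was low for Eif3b (83.3 CPM, others at least 108), high for Eif4a2 (361, at most 267) and high for the log2 ratio of Eif4a2 to Eif4a1 (0.30, others at most -0.03). ND+veh replicate 4 was high for Eif4e3 (14.4 CPM, others at most 5.50), and HFD+veh replicate 3 had the lowest total count of its group (19.8 M, others at least 21.3 M).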

How the results depend on the processing

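No called fold change of a named member changed sign under any of the settings tried. The counts of called members were 12 (HFD+veh against ND+veh), 20 (HFD+eRapa against HFD+veh) and 2 (HFD+eRapa against ND+veh) in edgeR, and in the same order 14, 23 and 3 with DESeq2, 11, 20 and 2 with voom, and 10, 18 and 2 with DESeq2 size factors. Scaling by total counts gave 13, 11 and 1; it moved the median fold change of all genes to -0.13 and -0.12 in the comparisons with HFD+eRapa, and the 11 were 9 higher and 2 lower. No filter on low counts gave 6, 16 and 1, at least 10 counts in every library 10, 13 and 2, and only the groups compared 5, 13 and 5. An immune marker score as a covariate gave 1, 3 and 5, and the other non-hepatocyte score 3, 2 and 3. Deposited FPKM with limma gave 10, 9 and 0 (pseudocount 1), 9, 9 and 0 (pseudocount 0.1, which moved the median of all genes to -0.10 and -0.12 with HFD+eRapa), and 6, 5 and 0 (pseudocount 1, no filter). In these 3 limma fits 8, 9 and 8 members had an unadjusted p under 0.05 in the last comparison. The GC trend, added after the data were seen, gave 9, 14 and 4, and leaving out the 4 libraries of lowest GC tilt, likewise added, 5, 14 and 5. Why these counts moved was not tested.

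Leaving out 1 library gave 8 to 15, 13 to 22 and 1 to 3 calls, the 13 without HFD+eRapa replicate 6. Between HFD+eRapa and ND+veh, 1 call was left without ND+veh replicate 1, 3 or 6 or HFD+eRapa replicate 1, 2, 3, 5, 6, 8 or 9. Some calls near the threshold rested on single libraries. The decrease of Eif4h was lost without ND+veh replicate 3, 5 or 6, and the rise of Eif2s3y with the high-fat diet without ND+veh replicate 1, 4 or 6 or HFD+veh replicate 3, 4, 6 or 7. The decrease of Eif2b5 held only without ND+veh replicate 4 or 8 or HFD+veh replicate 1 or 5, that of Eif4b only without ND+veh replicate 4 or 8 or HFD+veh replicate 1 or 2, and that of Eef2kmt only without ND+veh replicate 4 or 8 or HFD+eRapa replicate 4 or 7. With rapamycin, the rise of Eif2d was lost when any 1 of HFD+eRapa replicates 1 and 3 to 8 was left out. Those of Eif3g, Eif4g1 and Eif5a were lost without HFD+veh replicate 3, 4 or 6 or HFD+eRapa replicate 1, 3, 5, 6, 7 or 8. Those of Eif3g and Eif4g1 were also lost without HFD+veh replicate 5, that of Eif4g1 without HFD+eRapa replicate 9 and that of Eif5a without HFD+veh replicate 2. The ratio of Eif4e3 to Eif4e differed by 1.00 to 1.62 with the high-fat diet, and only without ND+veh replicate 4 (1.62) did it pass.

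Labels number the animals of each group alike, but the numbers mark different animals. Same-numbered libraries deviated together (correlation over 0.1) in 5 of 7, 2 of 7 and 2 of 8 pairs. The mean correlation was 0.32, -0.24 and -0.2 in the same order, so pairs with HFD+eRapa deviated in opposite directions on average. With the replicate block the counts were 8, 11 and 1, and the ratio of Eif4e3 to Eif4e differed by -1.42 between HFD+eRapa and HFD+veh (adjusted p = 0.14 by exact sign-flip permutation over 7 pairs, whose smallest unadjusted p is 0.016).

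Members under 1 CPM, such as Eif5a2, are limited by depth, and their fold changes depend on the prior count. Replicate counts of 7 to 9 limit the precision of all other values.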
